A study of Homo sapiens with 4 samples.

Results

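A set of 10 genes of the G1 phase of the cell cycle was described in RNA-seq of 4 human lines from acute lymphoblastic leukemia of B precursors: the D-type cyclins CCND1, CCND2 and CCND3, the E-type cyclins CCNE1 and CCNE2, the kinases CDK4 and CDK6, and the inhibitors CDKN1A, CDKN1B and CDKN2C. They were chosen by symbol and are 10 of 23368 entries of the deposited count table. All 10 passed the filter on low counts, which left 13844 genes for testing. The t(4;11) group held RS4;11 and SEM, which carry the translocation t(4;11) with a rearranged MLL gene, and the control group held NALM6 and REH, which lack it (n = 2 lines a group, 1 library a line). The first 2 are called the translocation lines below and the other 2 the controls. All 4 were cultured in RPMI with serum to subconfluence, and the labels name no treatment. A line stands for 1 leukemia, so t(4;11) and other differences between the 4 leukemias cannot be told apart, and the p-values measure the spread between lines.

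In G1, mitogen signals raise D-type cyclins, which bind CDK4 or CDK6 and begin to phosphorylate the retinoblastoma protein. Cyclin E then joins CDK2 and completes this step, which frees E2F factors to switch on genes of DNA replication. INK4 proteins such as p18 (CDKN2C) bind CDK4 and CDK6 alone, while CIP/KIP proteins such as p21 (CDKN1A) and p27 (CDKN1B) bind cyclin-CDK complexes. In mouse pre-B cells cyclin D3 is the D-type cyclin known to drive expansion. CDK6 is a known target of MLL fusion proteins, and menin and MLL are known to maintain CDKN1B and CDKN2C in mouse endocrine cells.

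The libraries held 33620574 to 84212986 gene counts, and levels are given as CPM, counts scaled to the summed counts of each library. All 10 B-precursor markers chosen to check identity were counted in every line. Their summed level was 2409 CPM for RS4;11 and 1217 for SEM, set against 4425 CPM for NALM6 and 3766 for REH. SEM was low in CD24 (6.01 CPM), CD79B (9.73 CPM), VPREB1 (16.4 CPM), IGLL1 (27.1 CPM) and BLNK (0.178 CPM), and REH was low in VPREB1 (0.226 CPM). RS4;11 had 6.82 CPM of BLNK, against 89.5 in NALM6 and 260 in REH. Of the 10 markers, 5 lay below both controls in both translocation lines and 0 above, where all genes tested had 28.3% and 19%. The authors' deposited DESeq table called CD79B and CD24 lower, and their Cuffdiff table these and BLNK. Those tables called 1.56% and 2.34% of their genes. Of 7 T and NK cell markers in the table, CD3D, CD3E and CD3G had no count in any line, and the summed level was 34.2 and 41.6 CPM with the translocation, set against 23.4 and 18.2 CPM without it. LCK made up nearly all of it in RS4;11, NALM6 and REH, while SEM had 36.9 CPM of LCK and 4.67 CPM of NCAM1, which had 0 counts in the other lines. The 8 myeloid markers summed to 15.3 CPM for RS4;11 and 49.7 for SEM, set against 15.3 CPM for NALM6 and 45.4 for REH, with ELANE at 0 in all. The largest of them was CSF1R in RS4;11 (10.0 CPM) and SEM (33.3 CPM), LYZ in NALM6 (8.14 CPM) and MPO in REH (34.2 CPM). The 6 erythroid and megakaryocyte markers summed to 6.84 CPM for RS4;11 and 1.04 for SEM, set against 0.736 CPM for NALM6 and 3.03 for REH, with HBA1, HBB and PF4 at 0 in all. The 8 stromal and epithelial markers summed to 3.05 CPM for RS4;11 and 19.3 for SEM, set against 0.446 CPM for NALM6 and 3.25 for REH, with COL1A2 and DCN at 0 in all. PECAM1 was the largest of them in SEM (15.2 CPM, with COL1A1 at 4.16 CPM). COL1A1 was the largest in RS4;11 (1.79 CPM), NALM6 (0.245 CPM) and REH (3.04 CPM). The part of these differences in the results below was not tested. In such bulk RNA a lower level can mean fewer cells that express a gene or less RNA per cell, which cannot be told apart.

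In 3 of the 10 genes, CDK6, CDKN1A and CDKN1B, both translocation lines lay above both controls. No gene lay below the controls in both translocation lines. Over all 13844 genes tested, 19% lay above in this way and 28.3% below. With library sizes scaled by TMM the shares were 24.2% above and 23.4% below, and CDK4 joined the genes that lay above, for 4 of 10. The promoter sequences of the 3 genes are shown because these genes sat on the same side in both translocation lines, and that of CCND3 because it made up nearly all of the D-type cyclin level. RefSeq promoters (build GRCh38.p14, 250 bases before to 50 after the start) were matched for 7 of the 10 genes and are given in sense orientation for CDKN1A (chr6:36678464-36678763, plus strand), CDKN1B (chr12:12717118-12717417, plus strand), CDK6 (chr7:92836524-92836823, minus strand) and CCND3 (chr6:42048639-42048938, minus strand). Capitals mark the GC box GGGCGG and the E box CACGTG on either strand, with overlapping matches counted.
CDKN1A: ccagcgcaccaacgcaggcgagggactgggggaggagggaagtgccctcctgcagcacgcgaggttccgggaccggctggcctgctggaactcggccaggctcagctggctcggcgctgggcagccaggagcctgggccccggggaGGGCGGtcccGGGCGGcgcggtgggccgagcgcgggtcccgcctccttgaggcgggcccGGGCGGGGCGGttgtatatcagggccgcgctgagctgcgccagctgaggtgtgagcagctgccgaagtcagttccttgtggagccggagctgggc
CDKN1B: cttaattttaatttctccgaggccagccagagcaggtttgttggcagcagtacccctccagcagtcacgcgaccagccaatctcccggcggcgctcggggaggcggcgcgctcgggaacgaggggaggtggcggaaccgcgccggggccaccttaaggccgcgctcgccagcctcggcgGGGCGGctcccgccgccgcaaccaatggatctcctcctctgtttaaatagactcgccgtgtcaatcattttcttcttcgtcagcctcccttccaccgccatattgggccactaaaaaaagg
CDK6: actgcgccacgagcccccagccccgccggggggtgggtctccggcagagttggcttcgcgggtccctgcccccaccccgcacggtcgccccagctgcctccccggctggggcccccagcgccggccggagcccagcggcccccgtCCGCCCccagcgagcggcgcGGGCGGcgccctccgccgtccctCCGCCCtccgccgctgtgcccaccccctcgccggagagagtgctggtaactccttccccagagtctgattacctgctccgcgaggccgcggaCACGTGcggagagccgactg
CCND3: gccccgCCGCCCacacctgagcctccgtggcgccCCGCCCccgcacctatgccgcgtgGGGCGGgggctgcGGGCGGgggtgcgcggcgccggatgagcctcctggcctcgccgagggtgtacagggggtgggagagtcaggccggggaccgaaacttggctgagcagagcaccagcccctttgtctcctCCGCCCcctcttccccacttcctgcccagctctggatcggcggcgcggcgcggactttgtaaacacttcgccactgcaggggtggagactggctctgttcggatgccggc

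The GC box was found 4 times in the CDKN1A window, once in that of CDKN1B, 3 times in that of CDK6 and 5 times in that of CCND3. Of 35116 RefSeq promoters of the same length, 45% held at least 1. Of the 4 windows shown, only that of CDK6 held the E box, once, and 7.26% of all promoters held it. Among the matched windows not shown, that of CDK4 held the E box 3 times, that of CDKN2C once and that of CCNE1 0 times. They held the GC box 3 times (CDK4), 0 times (CDKN2C) and 7 times (CCNE1). The letters TATAAA and the E2F-type letters TTTCCCGC, TTTCGCGC, TTTGCCGC and TTTGGCGC were searched in the same way and matched in none of these 4 windows, against 11.5% and 3.31% of all promoters. The windows were rich in G and C, with 74.3% in CDKN1A, 62.3% in CDKN1B, 78% in CDK6 and 72.3% in CCND3, against a median of 58.7% over all promoters. A match describes the letters only, and the RNA data do not show which start site was used.

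Among the inhibitors, CDKN1A encodes p21, a CDK inhibitor induced by DNA damage. It lies on chromosome 6 (36644237 to 36655116, hg19). Its level was 73.4 CPM for RS4;11 and 133 for SEM, set against 44.3 CPM for NALM6 and 30.9 for REH. Both translocation lines were above both controls, and SEM was the highest. The translocation lines differed 1.81-fold from each other and the controls 1.44-fold, while the mean was 103 ± 42.1 CPM with the translocation and 37.6 ± 9.50 CPM without it (SD, n = 2 each), a ratio of 2.74. The edgeR quasi-likelihood log2 fold change was 1.55 (SE 0.40, adjusted p = 0.36 over all genes, unadjusted 0.0198), so the difference did not pass the test. It was 1.09 without SEM and 1.92 without RS4;11. The authors' deposited DESeq table gave a log2 difference of 1.56 with an adjusted p of 0.65, and their deposited Cuffdiff table a log2 difference of 1.55 with a q of 0.128, both turned to t(4;11) over control.

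CDKN1B encodes p27, which holds cyclin E-CDK2 inactive in quiescent cells, and lies on chromosome 12 (12870302 to 12875305, hg19). Its level was 133 CPM for RS4;11 and 123 for SEM, set against 79.1 CPM for NALM6 and 71.9 for REH. The lines of each group were close together, within 1.08-fold in the translocation lines and 1.10-fold in the controls, and the groups did not overlap. The mean was 128 ± 6.62 CPM with the translocation and 75.5 ± 5.06 CPM without it (SD, n = 2 each), a ratio of 1.70. Its edgeR log2 fold change of 0.86 had the smallest standard error of the 10 genes, 0.17, and ranged from 0.79 to 0.94 when each line was left out. The adjusted p was 0.313 by edgeR (unadjusted 0.00762), 0.854 in the authors' deposited DESeq table, and the q was 0.53 in their deposited Cuffdiff table. DESeq2 on the same counts, run as an alternative, called CDKN1B (adjusted p = 0.000109) and CDKN1A (adjusted p = 0.0142) higher and none of the other 8 genes, where it called 10.1% of all genes, 5.21% higher and 4.93% lower. The edgeR exact test called 0 of the 10 and 3.19% of all genes.

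CDKN2C encodes the INK4 inhibitor p18, which binds CDK4 and CDK6, and lies on chromosome 1 (51434367 to 51440309, hg19). Its level was 136 CPM for RS4;11 and 94.1 for SEM, set against 67.3 CPM for NALM6 and 115 for REH. REH lay between the translocation lines, so the groups overlapped. The edgeR log2 fold change was 0.44 (SE 0.38, adjusted p = 0.683), and it was 0.14 without RS4;11 and 0.11 without NALM6.

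Levels of different genes were set side by side only when scaled to gene length. The scale used was CPM per kilobase of annotated exon (CPM per kb), with exon lengths from GENCODE release 29 and not from the authors' annotation. On this scale the 3 inhibitors summed to 120.3 and 128 CPM per kb in RS4;11 and SEM, against 67.7 and 74.0 CPM per kb in NALM6 and REH. The sum was 1.75-fold higher in the translocation lines, at 124 ± 5.30 CPM per kb against 70.8 ± 4.44 in the controls (SD, n = 2 each). Of its 3 genes, CDKN1A and CDKN1B lay above the controls in both translocation lines, while CDKN2C overlapped. The make-up of the sum differed by line. CDKN1A gave 41.5% of it in SEM and 24.3% in RS4;11, against 26.1% in NALM6 and 16.6% in REH. CDKN2C was the largest of the 3 in REH with 46.8%, and CDKN1B in RS4;11 with 41.5% and NALM6 with 44%. The order of the 3 depended on the measure. In the authors' deposited Cuffdiff table, which gives length-scaled FPKM per group, CDKN2C was the largest in both groups. With t(4;11) it had 72.5 FPKM, against 57.5 for CDKN1B and 52.0 for CDKN1A. In the control group these values were 47.7, 31.7 and 17.8 FPKM.

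**Figure D1:**
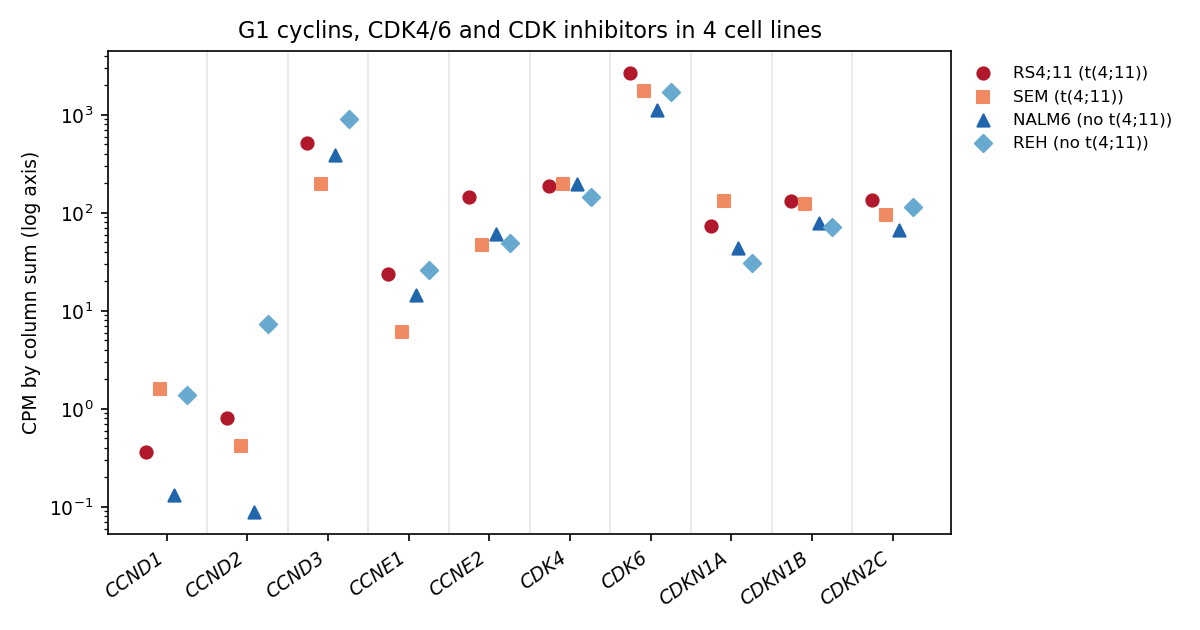
Level of each gene in each line, in CPM by column sum on a log axis, 1 point per library, with the translocation lines in red and orange and the lines without it in blue. For CDKN1A, CDKN1B and CDK6 the points of both translocation lines lie above those of both controls, while CCND1 and CCND2 stay under 8 CPM in every line.

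Of the kinases, CDK6 is a catalytic partner of D-type cyclins with known roles in blood cells. It lies on chromosome 7 (92234235 to 92465941, hg19). Its level was 2693 CPM for RS4;11 and 1746 for SEM, set against 1110.2 CPM for NALM6 and 1702 for REH. The groups did not overlap, but SEM lay only just above REH. The mean was 2219.7 ± 669.9 CPM with the translocation and 1406 ± 418 CPM without it (SD, n = 2 each). The edgeR log2 fold change was 0.76 (SE 0.39, adjusted p = 0.526), and it ranged from 0.41 without RS4;11 to 1.10 without REH. The authors' deposited Cuffdiff table gave 197 FPKM in the t(4;11) group and 117 FPKM in the control group, at ranks 328 and 499 of the 14203 genes it tested.

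CDK4, the sister kinase with the same partners, was nearly level. It had 189 CPM for RS4;11 and 199 for SEM, set against 198 CPM for NALM6 and 145 for REH. NALM6 lay between the translocation lines, and REH was the low line. CDK4 had the smallest spread of the 10 genes, with 1.37-fold between its highest and lowest lines. The edgeR log2 fold change was 0.28 (SE 0.21, adjusted p = 0.641), and it was 0.07 without REH. CDK4 shares its hg19 locus in the Cuffdiff table (chromosome 12, 58138784 to 58146230) with TSPAN31, and a library kit that does not mark strand cannot separate reads where such neighbours overlap.

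Within a library, the ratio of CDK6 to CDK4 counts does not depend on library scaling. It was 14.3 in RS4;11 and 8.77 in SEM, against 5.62 in NALM6 and 11.7 in REH, so REH lay between the translocation lines. On the log2 scale the mean was 3.48 ± 0.50 in the translocation lines and 3.02 ± 0.75 in the controls (SD, n = 2 each), and the difference of 0.46 was within this spread. Without NALM6 the difference turned to -0.068. Per kb of exon, CDK6 made up 71.6% of the CDK4 and CDK6 sum in RS4;11 and 60.8% in SEM, against 49.9% in NALM6 and 67.5% in REH. The sum itself was 321 and 245 CPM per kb in the translocation lines, against 189.8 and 215 CPM per kb in the controls.

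**Figure D2:**
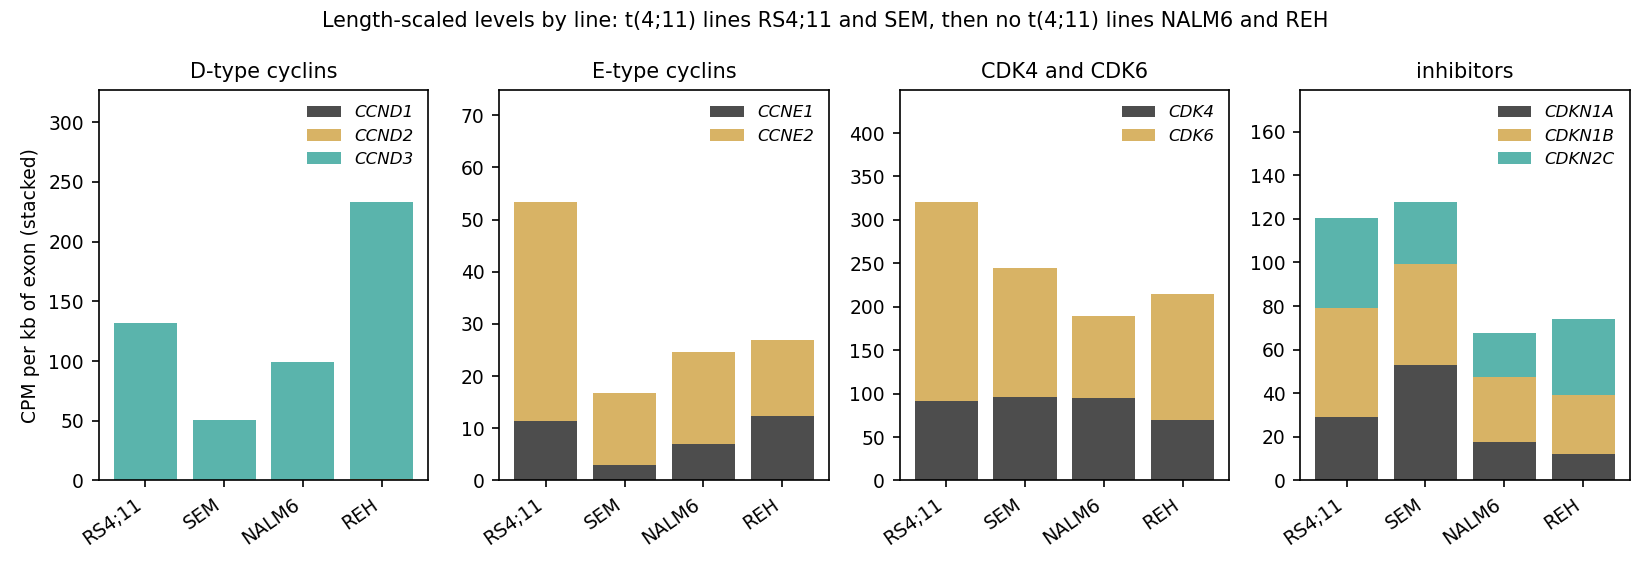
Stacked levels in CPM per kb of exon for the D-type cyclins, the E-type cyclins, CDK4 with CDK6 and the inhibitors, 1 bar per library, with the translocation lines RS4;11 and SEM at the left of each panel. The inhibitor bars of RS4;11 and SEM reach 120.3 and 128 CPM per kb, against 67.7 and 74.0 in NALM6 and REH, and the D-type cyclin bars are almost wholly CCND3.

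Of the D-type cyclins, CCND3 made up at least 99.2% of the length-scaled sum in every line. That sum overlapped between groups, at 131.6 and 51.0 CPM per kb in RS4;11 and SEM, against 99.2 and 233 in NALM6 and REH. CCND3 lies on chromosome 6 (41902671 to 42016610, hg19). Its level was 518 CPM for RS4;11 and 199.5 for SEM, set against 391 CPM for NALM6 and 914 for REH. REH was the highest and SEM the lowest, with 4.58-fold between them, and the groups overlapped. By edgeR the log2 fold change was -0.76 (SE 0.69, adjusted p = 0.703), and it was -1.61 without RS4;11 and -0.02 without REH. The ratio of CCND3 to CDK6 counts was 0.192 in RS4;11 and 0.114 in SEM, against 0.352 in NALM6 and 0.537 in REH, lower in both translocation lines. This and the ratios below, 7 in all with CDK6 to CDK4, were compared without a test, and all but CDK6 to CDK4 were chosen after the counts were seen. The exact permutation test of 2 lines against 2 cannot go below a two-sided p of 0.333.

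CCND2, a D-type cyclin used by mature B cells, had 42 counts in RS4;11 (0.81 CPM) and 14 counts in SEM (0.416 CPM), against 4 counts in NALM6 (0.0892 CPM) and 618 counts in REH (7.34 CPM). Only REH passed 1 CPM, and NALM6, with 4 counts, was near the floor of 3 counts, which is 0.0669 CPM in that line. By edgeR the log2 fold change of -2.49 (SE 2.05, adjusted p = 0.668) rested on REH, since it was 2.84 without that line. CCND1, the cyclin that is translocated in mantle cell lymphoma, had 0.366 CPM for RS4;11 and 1.61 for SEM, set against 0.134 CPM for NALM6 and 1.38 for REH. The groups overlapped, and the edgeR log2 fold change of 0.46 (SE 1.46, adjusted p = 0.923) was -0.92 without SEM and -0.39 without NALM6.

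CCND2 had the widest range of the 10 genes on the scale of log2(CPM + 1). Among the genes tested that lay nearest to it on this scale over the 4 lines, by Euclidean distance, were LINC00173 (distance 0.211) and B9D1 (0.298). Both were highest in REH, at 6.31 and 6.85 CPM, and at most 1.02 CPM in the other lines. With 4 lines this likeness describes these libraries only.

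The E-type cyclins activate CDK2 late in G1. CCNE1, on chromosome 19 (30302901 to 30315215, hg19), had 23.7 CPM for RS4;11 and 6.07 for SEM, set against 14.6 CPM for NALM6 and 25.9 for REH. RS4;11 and REH were both high and SEM was low, so the groups overlapped (edgeR log2 fold change -0.34, SE 0.82, adjusted p = 0.898). Its sign turned to 0.35 without SEM and 0.13 without REH. CCNE2 had 144 CPM for RS4;11 and 47.5 for SEM, set against 60.4 CPM for NALM6 and 49.5 for REH. RS4;11 stood alone, and SEM was the lowest line. By edgeR the log2 fold change was 0.91 (SE 0.62, adjusted p = 0.607) and -0.11 without RS4;11. CCNE2 shares its locus on chromosome 8 (95835534 to 95907482, hg19) with INTS8 in the Cuffdiff table, so reads where the genes overlap are uncertain.

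CCNE2 took the larger part of the length-scaled E-type sum in every line, with 78.6% in RS4;11 and 82.6% in SEM, against 71.4% in NALM6 and 53.7% in REH. The sum itself overlapped between groups, at 53.4 and 16.8 CPM per kb in RS4;11 and SEM, against 24.7 and 26.9 in NALM6 and REH. The ratio of CCNE2 to CCNE1 counts was 6.08 and 7.83 in the translocation lines, against 4.13 and 1.92 in the controls. It was higher in both translocation lines, although CCNE1 and CCNE2 themselves each overlapped between groups. Of the other ratios within a library, that of CDKN2C to CDK6 counts was 0.0506 in RS4;11 and 0.0539 in SEM, against 0.0606 in NALM6 and 0.0675 in REH. Those of CDKN1A and CDKN1B to CDK6 overlapped between groups, at 0.0272 and 0.0761 in the translocation lines against 0.0399 and 0.0181 in the controls for CDKN1A. For CDKN1B they were 0.0493 and 0.0706 in the translocation lines against 0.0712 and 0.0423 in the controls. The ratio of CDKN1B to CDKN1A counts was 1.81 in RS4;11 and 0.928 in SEM, against 1.78 in NALM6 and 2.33 in REH. SEM was the low line, and the groups did not separate because NALM6 lay below RS4;11.

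**Figure D3:**
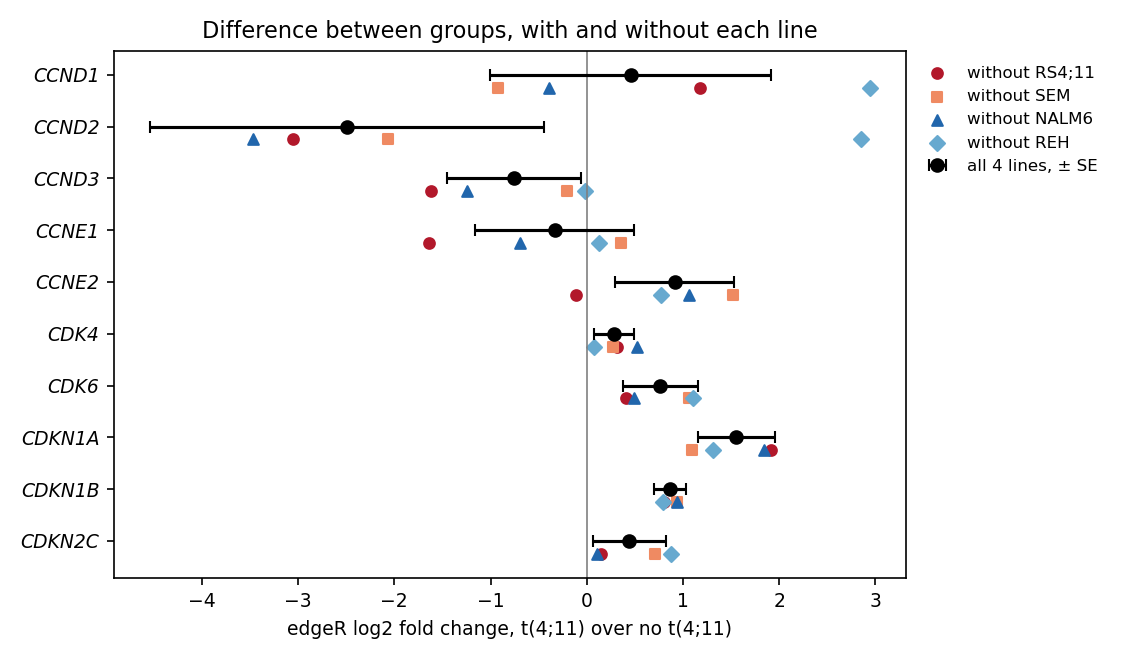
Log2 fold change of t(4;11) over no t(4;11) for each gene from edgeR with all 4 lines (black, ± SE) and with each line left out (coloured). CDK4, CDK6, CCND3 and the 3 inhibitors keep their sign in all of these fits, while CCND1, CCND2, CCNE1 and CCNE2 change sign without at least 1 line. Without REH, however, CDK4 is only at 0.07 and CCND3 only at -0.02.

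Across the 10 genes, edgeR's quasi-likelihood test called 0 at an adjusted p under 0.05, and it called 0% of all 13844 genes. At an unadjusted p under 0.05 it gave 2 of 10 higher, CDKN1A and CDKN1B, and 0 lower, where 6.18% of all genes were higher and 5.87% lower, 1668 genes or 12% together. That p was 0.0691 for CDKN1A without SEM and 0.0901 without REH, and 0.0571 for CDKN1B without RS4;11. The median log2 fold change was 0.45 over the 10 genes, 7 of them positive and 3 negative, against -0.02 over all genes tested. Neither the authors' deposited DESeq table, which called 1.56% of its genes, nor their deposited Cuffdiff table, which called 2.34%, called any of the 10. RS4;11 was the highest line for 4 genes (CCNE2, CDK6, CDKN1B and CDKN2C) and the lowest for none. NALM6 was the highest for none and the lowest for 4 (CCND1, CCND2, CDK6 and CDKN2C). SEM and REH were each the highest for 3 and the lowest for 3. How often each line was highest or lowest over all genes tested was not counted.

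Other CDK inhibitors were read from a companion list of 5 genes, of which 3 were tested. CDKN2A, which encodes the INK4 inhibitor p16 and the ARF protein from the same gene, had 0 counts in RS4;11 and 3303 counts in SEM (98.2 CPM), against 2 counts in NALM6 and 0 counts in REH. A count of 0 allows up to 3 counts, which is 0.0578 CPM in RS4;11 and 0.0356 CPM in REH. CDKN2A and CDKN2B are named after their values were seen. SEM stood alone, so the level did not follow the groups, and counts per gene do not separate p16 from ARF. CDKN2B, the neighbouring INK4 gene, had 0 counts in RS4;11 and 45 counts in SEM (1.34 CPM), against 0 counts in both NALM6 and REH. CDKN1C (p57, the third CIP/KIP gene) had 0.231 and 0.208 CPM with the translocation, set against 0.87 and 3.24 CPM without it (edgeR log2 fold change -3.11, SE 0.98, adjusted p = 0.399). CDKN2D, the INK4 gene for p19, had 24.8 CPM for RS4;11 and 16.9 for SEM, set against 19.0 CPM for NALM6 and 46.7 for REH. The phosphatase CDKN3 had 29.4 and 50.8 CPM with the translocation (RS4;11, SEM), set against 24.2 and 34.4 CPM without it (NALM6, REH).

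Downstream of the kinases, 0 of 17 genes of the RB and E2F families passed edgeR's adjusted test, while 2 were higher and 1 lower by unadjusted p (under 0.05). The shares over all genes tested were 6.18% higher and 5.87% lower. TFDP2, a dimer partner of E2F factors, had 90.7 CPM for RS4;11 and 51.6 for SEM, set against 583 CPM for NALM6 and 516 for REH. Both translocation lines were far below both controls, with an edgeR log2 fold change of -2.84 (SE 0.37, adjusted p = 0.295). TFDP2 was called lower with t(4;11) in the authors' deposited DESeq table (adjusted p = 9.85e-08) and in their deposited Cuffdiff table (q = 0.00418). Its paralog TFDP1 lay the other way, at 386 and 184 CPM with the translocation, set against 165 and 162 CPM without it (log2 fold change 0.91, SE 0.42, edgeR adjusted p = 0.5). E2F1 had 148 and 86.6 CPM with the translocation (RS4;11, SEM), set against 191 and 234 CPM without it (NALM6, REH).

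Genes of S-phase entry that E2F factors activate centred on a median log2 difference of 0.16, with 20 genes tested. None passed the adjusted edgeR test, and 4 were higher and 0 lower by unadjusted p (under 0.05). Over all genes tested, 6.18% were higher and 5.87% lower in this way, and whether 4 of 20 differs from that share was not tested. MCM4, a subunit of the replicative helicase, had 901 CPM for RS4;11 and 791 for SEM, set against 534 CPM for NALM6 and 520.4 for REH. RRM2, a ribonucleotide reductase subunit, had 389 and 487 CPM with the translocation, set against 277 and 290.5 CPM without it. GINS2, of the GINS helicase complex, had 107 and 101 CPM with the translocation (RS4;11, SEM), set against 39.3 and 61.4 CPM without it (NALM6, REH). The mitotic list was nearly level, with a median of 0.06 over 10 genes and 0 at an unadjusted p under 0.05. Its proliferation marker MKI67, named here after its values were seen, had 1519.8 CPM for RS4;11 and 1087 for SEM, set against 1362 CPM for NALM6 and 1419.96 for REH. CDK1, PLK1 and BUB1 had edgeR log2 fold changes of 0.28, -0.19 and -0.28, none past the test.

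Of the ubiquitin ligase genes that degrade cyclins and inhibitors, 0 of 14 passed the adjusted edgeR test, with 3 higher and 1 lower by unadjusted p (under 0.05). Beside these counts, 6.18% of all genes tested were higher and 5.87% lower. SKP1, the adaptor of SCF ligases, had 216 and 213 CPM with the translocation, set against 136 and 135 CPM without it. FBXO4, an F-box protein linked to cyclin D1 turnover, had 14.03 CPM for RS4;11 and 20.9 for SEM, set against 6.96 CPM for NALM6 and 6.89 for REH. FBXW7, the F-box protein that targets cyclin E, had 35.2 and 33.0 CPM with the translocation, set against 51.8 and 61.0 CPM without it. Each of these 3 genes was separated between groups, with edgeR adjusted p-values of 0.31, 0.384 and 0.41. They were picked for the size of their fold change, which favours separation. Of the 14 genes, 5 lay above and 4 below the controls in both translocation lines, where all genes tested had 19% and 28.3%.

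Of 10 tested regulators in the list with FOXO factors, 0 passed the adjusted edgeR test and 2 were lower and 0 higher at an unadjusted p under 0.05, with a median log2 fold change of -0.43. At that p, 5.87% of all genes tested were lower and 6.18% higher. FOXO1, a transcription factor that activates CDKN1B, had 65.2 CPM for RS4;11 and 1.70 for SEM, set against 141 CPM for NALM6 and 370.5 for REH. It was called lower with t(4;11) in the authors' deposited Cuffdiff table (q = 0.00418) and not in their deposited DESeq table (adjusted p = 0.871). MEN1, which encodes menin, had 38.8 and 40.9 CPM with the translocation, set against 94.6 and 59.6 CPM without it. MYC, which represses CDKN1A, had 462 CPM for RS4;11 and 438 for SEM, set against 1212 CPM for NALM6 and 395 for REH.

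Partners and activators of the G1 kinases had 1 of 9 tested genes lower and 0 higher at an unadjusted p under 0.05, with 0 past the adjusted edgeR test. Among all genes tested, 5.87% were lower and 6.18% higher at that unadjusted p. CDC25A, the phosphatase that removes inhibitory phosphates from CDK2, had 100.01 and 99.7 CPM with the translocation, set against 77.6 CPM for NALM6 and 28.7 for REH. CDC25B had 77.8 and 73.2 CPM with the translocation (RS4;11, SEM), set against 146 and 118 CPM without it (NALM6, REH). MNAT1, a subunit of the CDK-activating kinase, had 9.64 and 15.9 CPM with the translocation, set against 23.7 and 31.5 CPM without it. Over the 9 companion lists together, 1 of which is counted here but not described, 116 of 121 genes were tested and 18 had an edgeR unadjusted p under 0.05, which is 15.5% against 12% of all genes tested.

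**Figure D4:**
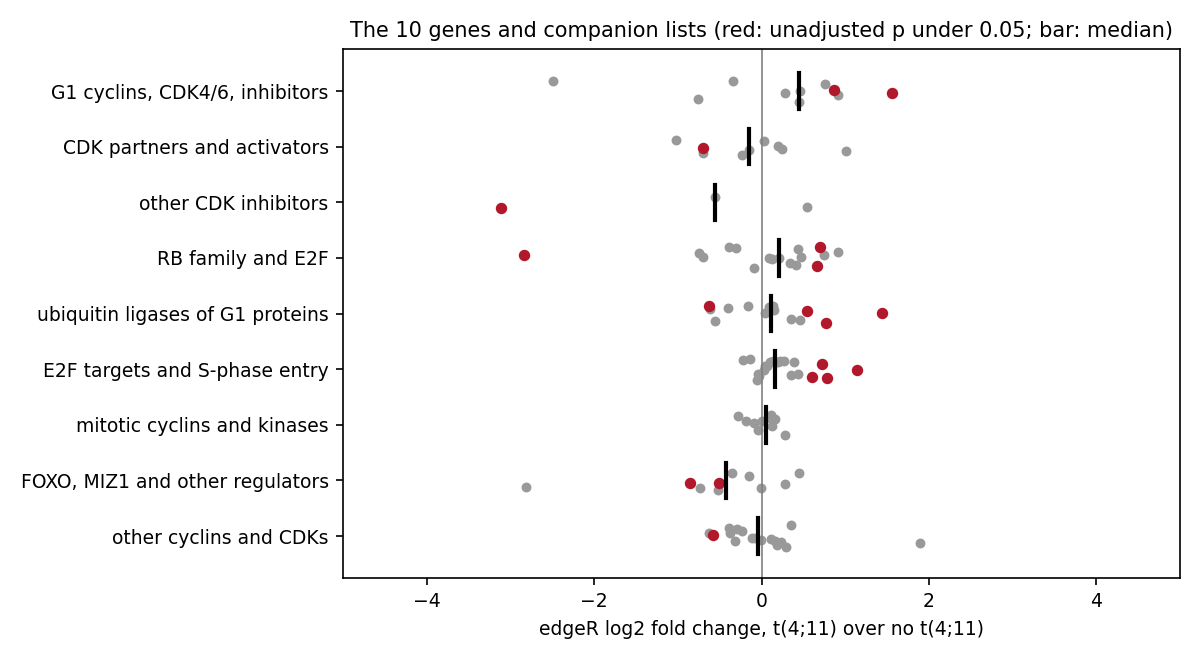
The x axis is the edgeR log2 fold change of t(4;11) over no t(4;11) and each row holds the 10 genes or 1 of the 8 companion lists described, 1 point per gene, red at an unadjusted p under 0.05, with a bar at each median. The median bar of the 10 genes is at 0.45 and those of the companion lists lie between -0.55 and 0.21; 1 gene beyond 5 on this axis is not drawn.

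Genes next to the 10 on the chromosomes were read within 500 kb in hg19. The 12 tested neighbours of CDKN1A had a median log2 fold change of -0.15, with 1 higher and 3 lower in both translocation lines. The 14 neighbours of CDKN1B had a median of 0.08, with 1 higher (DDX47) and 1 lower (KIAA1467). The 13 neighbours of CDK6 had a median of -0.04, with 0 higher and 4 lower, among them AKAP9 at 252 and 162 CPM with the translocation (RS4;11, SEM), set against 605 and 332 CPM without it (NALM6, REH). The 22 neighbours of CDK4 had a median of -0.37, with 3 higher and 11 lower. The 14 neighbours of CCND3 had a median of -0.48, with 2 higher and 6 lower, where all genes tested had 19% and 28.3%.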

How the data were processed

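RNA of 4 cell lines was sequenced with 1 library each, from TruSeq RNA libraries per the labels' protocols, a kit that does not mark strand. Build hg19 and the tools TopHat2 2.0.4, CASAVA 1.8.2, HTSeq, DESeq and Cuffdiff come from the submitters' processing notes, which give no settings or annotation. The authors deposited, per the file headers, HTSeq counts per gene, DESeq normalized counts (a signal: count over 1 size factor per line), group means, the fold change as a ratio of control over t(4;11), and p-values. Their deposited Cuffdiff table holds FPKM per group, log2 fold changes, a test statistic (a score) and p-values with q-values, per the file headers. Deposited log2 values were turned to t(4;11) over control, and for DESeq taken from the ratio because 865 log2 cells were spoiled.

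CPM used column sums. Tests used edgeR 4.0.16 in R 4.3.3 on all genes: TMM, filterByExpr, glmQLFit and glmQLFTest, two-sided, Benjamini-Hochberg at 0.05, with 2 residual degrees of freedom. SE is the log2 fold change over the square root of F. Scripts were tested on simulated counts with changes larger than those of the 10 genes and a spread smaller than in these data. That checked the sign and size of the changes and not the power at the spread of these data. DESeq2 1.42.0, edgeR's exact test, other scalings and filters and leaving out each line were alternatives. Groups came from the labels; replicate numbers follow listing order. Named were the 10 genes and, from each companion list, genes called in a deposited table or else those with the largest fold change at 1 CPM or more, up to 3. Lists and members were chosen with earlier results of these data known. A floor of 3 counts covers counting error only. Figures used matplotlib 3.10.9 in Python 3.11.15. The genes of 1 companion list and 1 other gene are not reported here, but counts over all 9 companion lists include that list.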

Additional observations from a re-analysis of the deposited data

How the results depend on the processing

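With another scaling (RLE or column sums), another filter or the edgeR exact test, 0 of the 10 genes were called, and DESeq2 called 2. Over all genes edgeR called 0, and 5 with no filter on low counts, 7 at an adjusted p under 0.1, 441 by its exact test, 1349 by DESeq2, 288 in the authors' deposited DESeq table and 332 in their deposited Cuffdiff table. In the companion lists 0 genes were called, against 12 by DESeq2 and 2 by the exact test. The cause was not tested. Column sums moved the median log2 fold change of all genes to -0.12, against -0.02 with TMM, and no sign among the 10 genes turned with scaling. The count of genes whose groups did not overlap was 3, or 4 with TMM-scaled sizes or the authors' DESeq normalized counts, and 5 to 8 when 1 line was left out, where 1 line against 2 separates more easily by construction. The CDK6 to CDK4 difference of 0.46 ranged from -0.068 (without NALM6) to 0.99 (without REH).

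Of 110 alternative values for single genes, 102 kept their sign and side of the threshold and 6 turned sign, all when 1 line was left out: CCND1 at -0.92 without SEM and -0.39 without NALM6, CCND2 at 2.84 without REH, CCNE1 at 0.35 without SEM and 0.13 without REH, and CCNE2 at -0.11 without RS4;11. With each line left out in turn, CCND1 ranged from -0.92 to 2.94, CCND2 from -3.47 to 2.84, CCNE1 from -1.64 to 0.35 and CCNE2 from -0.11 to 1.52. The unadjusted edgeR p of CDKN1A was 0.0691 without SEM and 0.0901 without REH, and that of CDKN1B 0.0571 without RS4;11. No paired analysis was possible because the labels give no replicate numbers that pair lines. CCND1 and CCND2 are limited by counts as low as 6 and 4 in NALM6.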

Other observations

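Among atypical cyclins and kinases, picked by the naming rule, CCNA1, the cyclin A of germ cells that is also expressed in some leukemias, had 1032 counts in SEM (30.7 CPM) and 15 counts in RS4;11 (0.289 CPM), against 0 counts in both NALM6 and REH. CDK14, a kinase that pairs with cyclin Y at the membrane, had 525 CPM for SEM and 123 for RS4;11, set against 75.4 CPM for NALM6 and 109.8 for REH. Both were called higher with t(4;11) in the authors' deposited Cuffdiff table (q = 0.00418 each) and neither in their deposited DESeq table (adjusted p = 0.732 for CCNA1 and 1 for CDK14). The edgeR adjusted p was 0.426 for CCNA1 and 0.463 for CDK14. TFDP2 and FOXO1 had the same Cuffdiff q as these 2 genes, and that table called 2.34% of the genes it tested. In both CCNA1 and CDK14, SEM was far above RS4;11. CDK9, of the transcription elongation kinase, had 155 CPM for RS4;11 and 93.5 for SEM, set against 149 CPM for NALM6 and 263 for REH.

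Of the tested neighbours of the 10 genes, the 3 with the largest edgeR log2 fold changes in either direction are given, a choice made after their values were seen, and none passed the adjusted test. ANO1, near CCND1, had 0.0193 CPM for RS4;11 and 0 counts in SEM, which allows up to 0.0892 CPM, set against 1.09 CPM for NALM6 and 14.8 for REH. EMP1, 500 kb or less from CDKN1B, had 219 CPM for SEM and 1.64 for RS4;11, set against 0.156 CPM for NALM6 and 2.10 for REH. PI16, near CDKN1A, had 22.9 CPM for SEM and 2.31 for RS4;11, set against 0.156 CPM for NALM6 and 0.499 for REH.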
